A study of Mus musculus with 9 samples.

Results

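Matricellular proteins are secreted into the extracellular matrix, where they tune adhesion, growth factor activity and signaling more than they bear load. Expression of 10 genes that encode them was followed in non-epithelial mammary cells from calorie-restricted (CR) and ad libitum-fed (Control) mice. The genes were Thbs1, Thbs2 and Thbs3 of the thrombospondin family, Cyr61 (CCN1), Ctgf (CCN2), Nov (CCN3) and Wisp2 (CCN5) of the CCN family, and Postn (periostin), Tnc (tenascin-C) and Sparc. They were chosen by name, with the difference between the diets in these same libraries already known. All 10 were among the 11063 genes of the deposited table, and all 10 passed the filter on low values, as did 6815 genes in total. The fold changes and adjusted p-values of the 10 genes are therefore a description, and no support is drawn from them.

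Thrombospondins are multimeric glycoproteins that bind integrins, CD36, CD47 and proteoglycans, and thrombospondin-1 can release transforming growth factor beta from its latent complex. CCN proteins share a modular build and bind integrins and heparan sulfate, and Cyr61 and Ctgf are classical targets of the YAP and TAZ coactivators, of serum response factor and of growth factors. In the mammary gland, stromal cells lay down matricellular proteins, and Postn and Tnc are best known from remodeling and tumor stroma.

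The cells came from female virgin FVB/N mice that were 6 weeks old at the start. The 5 CR mice were given 65% of the food eaten by the Control mice, by the labels, for 8 weeks, and the 4 Control mice, numbered 2 to 5, ate ad libitum. The sources differ on the food share, which is higher in the text of the study than in the labels. From the #4 mammary glands of each mouse, 15000 Lin-CD49fnegCD24neg cells were sorted, after a magnetic step that removed endothelial cells and part of the hematopoietic cells and fibroblasts in both groups alike. Poly(A) RNA, with 30 ng as input for each of the 9 libraries, was made into libraries with a bulk version of MARS-Seq, which counts molecules at the 3′ ends of transcripts by their identifiers. The cells are thus a mixture left by 2 negative gates and a depletion, and in bulk RNA fewer cells of a type and less RNA per cell cannot be told apart.

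The deposited values are counts normalized by the DESeq2 size factors, here called normalized counts. Whole counts recovered from them summed to 785301 to 1485963 in the CR libraries and to 382877 to 817030 in the Control libraries, so depth differed with diet. A gene at 0 may still have up to 3 counts, equal to 1.55 to 2.90 normalized counts in CR and 2.69 to 5.85 in Control, and this limit covers counting error only. Differences were fitted with limma on log2(normalized count + 1), a scale that understates the change of low genes, and a gene was called at a Benjamini-Hochberg adjusted p of at most 0.05. Of the 6815 genes, 17.1% were called in either direction, 7.98% higher and 9.14% lower in CR. With libraries scaled instead to a list of fibroblast genes (Fibroblasts), the median over all genes shifted by -0.33 on the log2 scale, with 97 genes called higher and 771 lower, against 544 higher and 623 lower on the deposited scale.

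Marker genes showed which cells the gate held. The Fibroblasts list (16 genes, none at 0 in all libraries) took 1.74 to 2.19% of all counts in CR and 1.11 to 1.92% in Control (p = 0.0635, exact two-sided permutation test; 0.199 adjusted over 10 lists). The T cells list took 0.0117 to 0.0254% in CR and 0.18 to 0.365% in Control, and the Mast cells list 0.0037 to 0.0176% in CR and 0.0464 to 0.0859% in Control (p = 0.0159 for each by the same exact test, the smallest it can give for 5 and 4 mice; 0.0795 adjusted over 10 lists). By limma, 9 of 9 tested T cell genes, 4 of 4 tested mast cell genes and 2 of 4 tested macrophage genes (Ctss and Tyrobp) fell in CR. The Endothelial cells list took 0.0122 to 0.0232% in CR and 0.0168 to 0.023% in Control, with Vwf at a median of 0 in both diets. Its 5 tested genes split by limma, with 2 higher in CR, 1 lower and 2 not called. Those higher were Tek (log2 fold change 2.15, adjusted p = 0.0298) and Eng (0.86, adjusted p = 0.0451), and Pecam1 was lower (-2.53, adjusted p = 0.000379). Tek was low and overlapped, with 0 to 19.5 normalized counts in Control (median 3.52) and 12.0 to 26.8 in CR. On recovered counts, DESeq2 and edgeR each called 1 gene of this list higher and 1 lower. The Macrophages and monocytes list took 0.00724 to 0.0436% in CR and 0.0225 to 0.0554% in Control, from 10 of its 14 markers, and the Pericytes and smooth muscle list 0.0286 to 0.105% in CR and 0.0295 to 0.0464% in Control. The B cells, Adipocytes, Schwann cells, Platelets and megakaryocytes and Epithelial cells lists each stayed at or below 0.0124% in every library, and 7 of the 10 epithelial markers were not analysed here. The part of these marker differences in the values below was not tested.

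Sequence upstream of the start site is shown for Cyr61, Thbs2 and Thbs3, since Cyr61 and Thbs2 are 2 of the 3 genes whose diets did not overlap and Thbs3 is the family neighbor that overlapped. RefSeq windows (GRCm38.p6, 250 bases before the annotated start, 5′ to 3′ on the strand of the gene) matched 6 of the 10 genes by symbol. They were searched on both strands for the TEAD motif GGAATG, the AP-1 motif TGANTCA and the CArG box of serum response factor, and on the sense strand for the TATA box TATAAA. Capitals mark the matches.
Cyr61, chr3:145649986-145650235, minus strand: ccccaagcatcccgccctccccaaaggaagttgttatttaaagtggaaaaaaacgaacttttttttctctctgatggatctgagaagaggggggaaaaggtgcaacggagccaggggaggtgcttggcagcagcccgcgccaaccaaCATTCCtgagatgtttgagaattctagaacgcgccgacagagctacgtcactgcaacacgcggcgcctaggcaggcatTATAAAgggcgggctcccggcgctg
Thbs2, chr17:14694263-14694512, minus strand: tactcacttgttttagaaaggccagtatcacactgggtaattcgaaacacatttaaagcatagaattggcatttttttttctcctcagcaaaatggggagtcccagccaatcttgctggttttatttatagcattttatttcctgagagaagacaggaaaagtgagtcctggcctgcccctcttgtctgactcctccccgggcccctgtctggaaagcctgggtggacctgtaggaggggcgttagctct
Thbs3, chr3:89214930-89215179, plus strand: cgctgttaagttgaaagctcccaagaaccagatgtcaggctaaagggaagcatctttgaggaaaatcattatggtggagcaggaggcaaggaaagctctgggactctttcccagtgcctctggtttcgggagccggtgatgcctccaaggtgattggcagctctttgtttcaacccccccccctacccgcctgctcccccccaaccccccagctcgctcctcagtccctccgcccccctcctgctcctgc
The Cyr61 window held 1 TEAD match, written on this strand as CATTCC and beginning 103 bases before the start, and 1 TATAAA beginning 25 bases before it. The windows of Thbs2, Thbs3 and Sparc held none of the 4 motifs, 1 of the 2 windows of Postn held TATAAA 26 bases before its start, and the overlapping windows of Tnc shared 1 TATAAA. Of 32851 such windows in the table, 12.6% held the TEAD motif, 6.75% the AP-1 motif, 1.47% the CArG box and 7.59% TATAAA. A match describes the letters of a window and not the binding of a factor.

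Of the CCN genes, Cyr61 and Nov separated the diets without overlap. Cyr61, which encodes an angiogenic and pro-adhesive matrix signal (chr3:145646976-145649981, minus strand, GRCm38), had 1206, 2437, 1605, 1969 and 2335 normalized counts in CR mice 1 to 5, against 766, 805, 582 and 698 in Control mice 2 to 5. The lowest CR mouse stood above the highest Control mouse, and the 4 Control mice lay closer together than the 5 CR mice. The means were 1910 ± 512 in CR and 713 ± 97.4 in Control (SD, n = 5 and 4), a log2 fold change of 1.39 ± 0.20 (SE, adjusted p = 6.79e-05, limma). By level, Cyr61 ranked 58 of the 11063 genes in CR and 150 in Control.

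Nov encodes CCN3, a family member best known for restraining proliferation (chr15:54745702-54754039, plus strand). It had 39.6, 67.9, 37.6, 70.7 and 52.3 normalized counts in CR mice 1 to 5 and 3.59, 23.4, 6.44 and 17.2 in Control mice 2 to 5. No Control mouse reached the lowest CR mouse, although Control mice 3 and 5 were well above Control mice 2 and 4. These values rest on 41 to 137 recovered counts per library in CR and 4 to 12 in Control. The log2 fold change was 2.25 ± 0.42 (SE, adjusted p = 0.00105, limma), the highest of the 10 genes and the one with the second widest error.

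Ctgf, the CCN gene most closely tied to fibrosis (chr10:24595442-24598683, plus strand), had 266, 221, 91.1, 132 and 106 normalized counts in CR mice 1 to 5, against 104, 81.8, 70.9 and 81.0 in Control mice 2 to 5. CR mice 1 and 2 were far above all others, CR mouse 4 was above the highest Control mouse, CR mouse 5 only just cleared it, and CR mouse 3 fell within the Control range. Its log2 fold change was 0.83 ± 0.28 (SE, adjusted p = 0.0496, limma). This value sits at the threshold: the gene stayed called in 9 of 21 alternative settings and was lost, for instance, without CR mouse 1 (0.62, adjusted p = 0.134), without CR mouse 2 (0.69, adjusted p = 0.122) and without Control mouse 4 (0.75, adjusted p = 0.124).

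Wisp2 encodes CCN5, which lacks the C-terminal module of its relatives (chr2:163820861-163833146, plus strand). It had 47.4, 19.4, 35.9, 18.6 and 3.43 normalized counts in CR mice 1 to 5 and 9.87, 5.85, 2.58 and 5.17 in Control mice 2 to 5. CR mice 1 to 4 lay above all Control mice, and CR mouse 5 lay among them. With 4 to 61 recovered counts per library in CR and 2 to 11 in Control, Wisp2 was the lowest of the genes and was not called (log2 fold change 1.65 ± 0.60 SE, adjusted p = 0.0666, limma). It was called without CR mouse 5 (2.19, adjusted p = 0.0046), by DESeq2 (2.05, adjusted p = 0.0216) and by edgeR (1.98, adjusted p = 0.0305) on recovered counts.

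**Figure D1:**
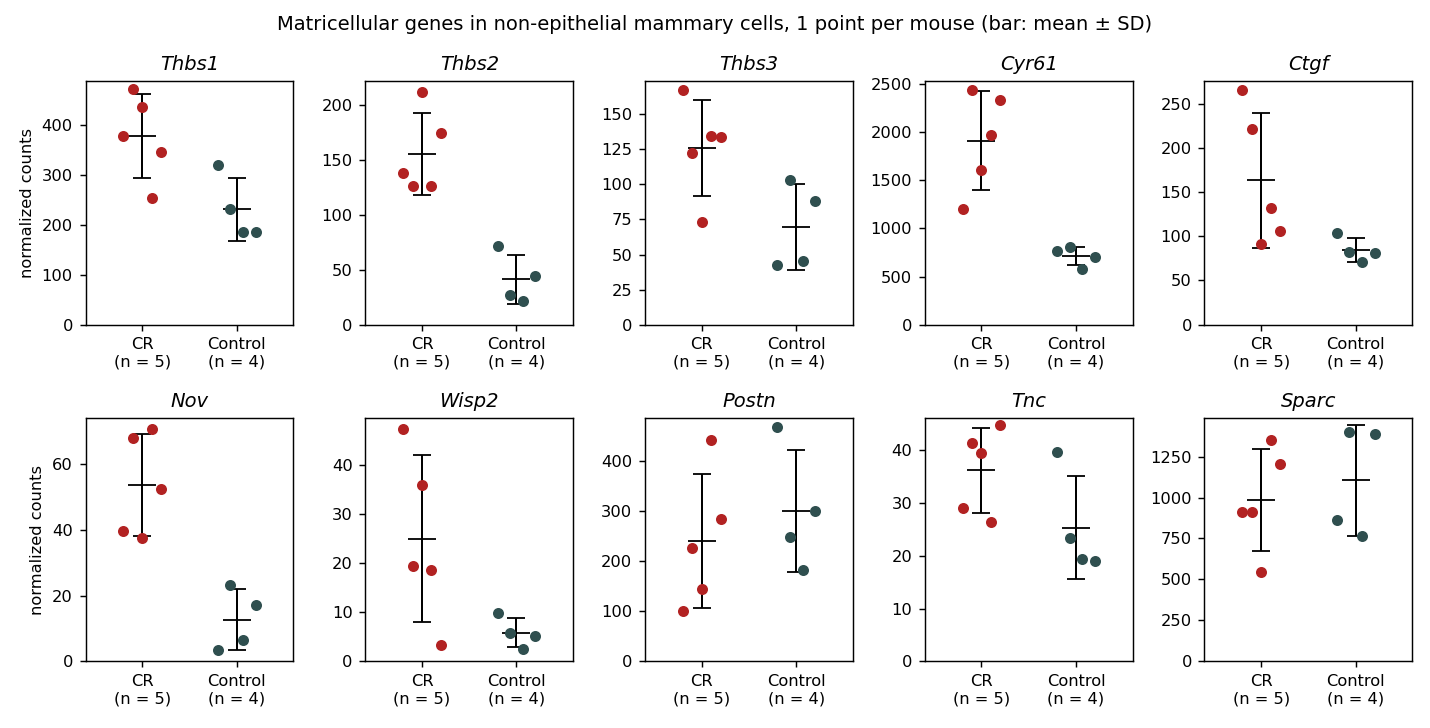
Normalized counts of the 10 genes, with 1 point per mouse, CR (n = 5) left of Control (n = 4) in each panel, and bars at the mean ± SD; each vertical axis starts at 0 and has its own range. Cyr61, Nov and Thbs2 separate the diets, while Postn, Tnc and Sparc interleave them.

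Among the thrombospondins, Thbs2 differed most. It encodes a trimeric, anti-angiogenic thrombospondin (chr17:14665500-14694235, minus strand) and had 138, 126, 212, 126 and 175 normalized counts in CR mice 1 to 5, against 71.8, 27.3, 21.9 and 44.8 in Control mice 2 to 5. The CR mice were all above the Control mice, and Control mouse 2 came nearest. The mean in CR was 3.75 times that in Control, and the log2 fold change was 2.0 ± 0.30 (SE, adjusted p = 0.000107, limma).

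Thbs1, the thrombospondin that activates latent transforming growth factor beta (chr2:118111876-118127133, plus strand), had 379, 473, 435, 254 and 347 normalized counts in CR mice 1 to 5 and 320, 232, 186 and 186 in Control mice 2 to 5. The ranges overlapped through CR mouse 4, which was below Control mouse 2, and the other 4 CR mice were above every Control mouse. The means were 378 ± 84.6 in CR and 231 ± 63.0 in Control (SD, n = 5 and 4), and the log2 fold change was 0.71 ± 0.21 (SE, adjusted p = 0.0259, limma). The call was lost in 6 of the 9 fits that left out a mouse, with adjusted p up to 0.0822 (without Control mouse 4), and the log2 fold change stayed between 0.62 and 0.88.

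Thbs3 encodes a pentameric thrombospondin (chr3:89215180-89226837, plus strand). It had 167, 122, 72.9, 134 and 134 normalized counts in CR mice 1 to 5, against 42.2, 103, 45.1 and 87.9 in Control mice 2 to 5. CR mouse 3 lay below Control mice 3 and 5, and the remaining CR mice lay above all Control mice. The log2 fold change was 0.91 ± 0.29 (SE, adjusted p = 0.0388, limma), and the call was lost without CR mouse 1 (0.79, adjusted p = 0.1), Control mouse 2 (0.70, adjusted p = 0.13) or Control mouse 4 (0.74, adjusted p = 0.128), among others. The 3′ end of Thbs3 overlaps that of Mtx1 on the opposite strand, and whether counting used strand is not given in the sources used here. Mtx1 itself had 45.2 ± 5.46 normalized counts in CR and 50.03 ± 1.01 in Control (SD, n = 5 and 4).

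The remaining 3 genes were not called. Sparc, a collagen-binding calcium-binding glycoprotein (chr11:55394500-55423183, minus strand), had 913, 912, 546, 1353 and 1202 normalized counts in CR mice 1 to 5 and 863, 1399, 763 and 1390 in Control mice 2 to 5. Its ranges overlapped almost fully, and CR mouse 3 was the lowest of all 9. The log2 fold change was -0.18 ± 0.24 (SE, adjusted p = 0.672, limma), with a 95% interval of -0.69 to 0.33, and it was 0.02 without CR mouse 3.

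Postn, a fasciclin-domain protein that supports collagen assembly (chr3:54361109-54391037, plus strand), had 101, 227, 145, 442 and 285 normalized counts in CR mice 1 to 5, against 468, 247, 183 and 300 in Control mice 2 to 5. CR mice 1 and 3 were below every Control mouse, and CR mouse 4 was above 3 of them. Its spread within diets was wide, with a highest to lowest ratio of 4.40 in CR and 2.56 in Control. The log2 fold change was -0.42 ± 0.34 (SE, adjusted p = 0.441, limma; 95% interval -1.14 to 0.30).

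Tnc encodes a six-armed anti-adhesive glycoprotein (chr4:63959785-64047015, minus strand). It had 29.0, 41.2, 39.4, 26.3 and 44.6 normalized counts in CR mice 1 to 5 and 39.5, 23.4, 19.3 and 19.0 in Control mice 2 to 5. Control mouse 2 was level with the upper CR mice, and the other 3 Control mice were below every CR mouse. The log2 fold change was 0.53 ± 0.30 (SE, adjusted p = 0.241, limma; 95% interval -0.09 to 1.16).

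In all, 6 of the 10 genes were called higher in CR, 0 were called lower (0 also at an unadjusted p of at most 0.05 and by DESeq2 or edgeR) and 4 were not called, where 7.98% of all tested genes were called higher and 9.14% lower. For 3 of the 10 every CR mouse exceeded every Control mouse, as for 7.29% of the tested genes. The median log2 fold change was 0.87 over the 10 genes and 0.07 over the 6815. Since the genes were chosen with these differences known, nothing is read from these counts.

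The scale mattered for the weaker genes. With the libraries scaled to the Fibroblasts list, the median was 0.53 over the 10 genes and -0.26 over all genes, and 3 genes were called: Thbs2 (1.67, adjusted p = 0.000429), Cyr61 (1.05, adjusted p = 0.00253) and Nov (1.95, adjusted p = 0.000777). These same 3 were called in each of the 21 alternative settings. Thbs1, at 0.37 (adjusted p = 0.437), Thbs3, at 0.57 (adjusted p = 0.221), and Ctgf, at 0.49 (adjusted p = 0.328), were not called on that scale. There, 2 genes were lower at an unadjusted p of at most 0.05 (limma) without being called. They were Postn (-0.76, adjusted p = 0.113) and Sparc (-0.52, adjusted p = 0.163). The number called was 3 without CR mouse 1, CR mouse 2 or Control mouse 4, and 4 to 6 without any other mouse.

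**Figure D2:**
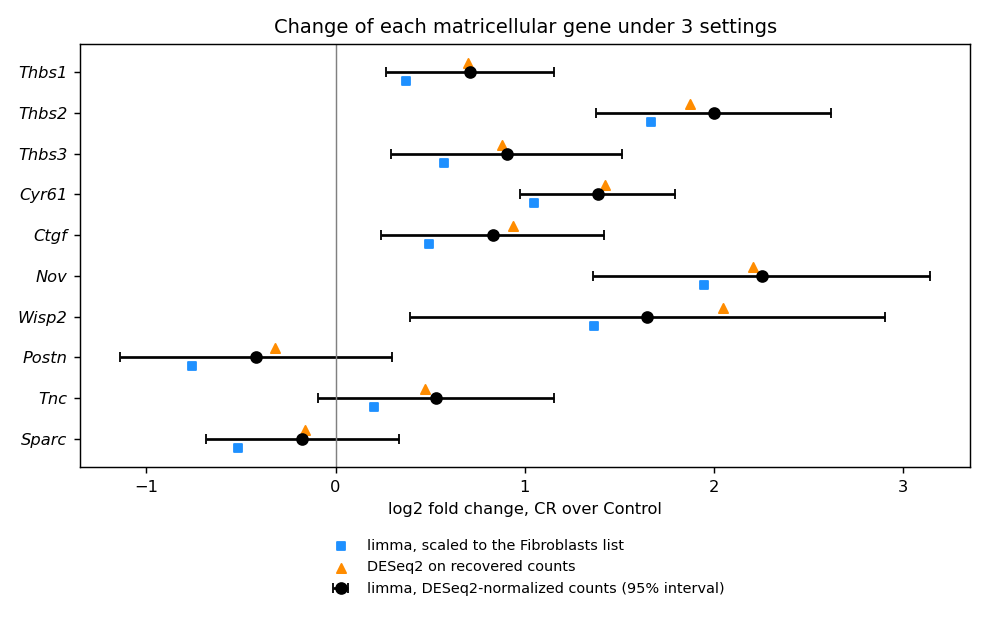
Log2 fold change of CR over Control for the 10 genes, as fitted by limma on the deposited normalized counts (circles, with 95% intervals), by DESeq2 on recovered counts (triangles) and by limma after scaling to the Fibroblasts list (squares). Thbs2, Cyr61, Nov and Wisp2, the last not called by limma, lie above 1 in all 3, and Sparc and Postn lie below 0.

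The order of the genes within each library, which does not depend on how libraries are scaled to each other, differed between the diets. It comes from the same values that were known when the genes were chosen, so it is a description and no support is drawn from it. Counts were taken at the 3′ ends, with 1 count per molecule, and were not divided by gene length. Cyr61 had the most counts of the 10 genes in all 5 CR libraries, and Sparc had the most in all 4 Control libraries. Cyr61 took 36.7 to 52.4% of their summed counts in CR and 24.7 to 31.0% in Control. Sparc took 16.9 to 29.9% in CR and 32.1 to 49.1% in Control.

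The shares by family are likewise a description of values known when the genes were chosen. By family, the CCN genes made 52.6 ± 4.83% of the sum in CR and 31.9 ± 2.92% in Control (SD, n = 5 and 4). Most of this was Cyr61, which alone made 46.5 ± 6.37% of the sum in CR and 27.9 ± 2.62% in Control. Postn, Tnc and Sparc together made 30.5 ± 6.84% in CR and 54.8 ± 4.52% in Control. The thrombospondins held 16.8 ± 4.64% in CR and 13.3 ± 2.07% in Control, and their shares, of 11.4 to 22.4% in CR and 11.3 to 16.1% in Control overlapped. The 10 genes together took 0.415 to 0.599% of all counts in CR and 0.275 to 0.395% in Control. The summed counts of Postn, Tnc and Sparc overlapped, with 730 to 1822 in CR and 965 to 1708 in Control, whereas those of the CCN genes were 1559 to 2745 in CR and 662 to 916 in Control.

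**Figure D3:**
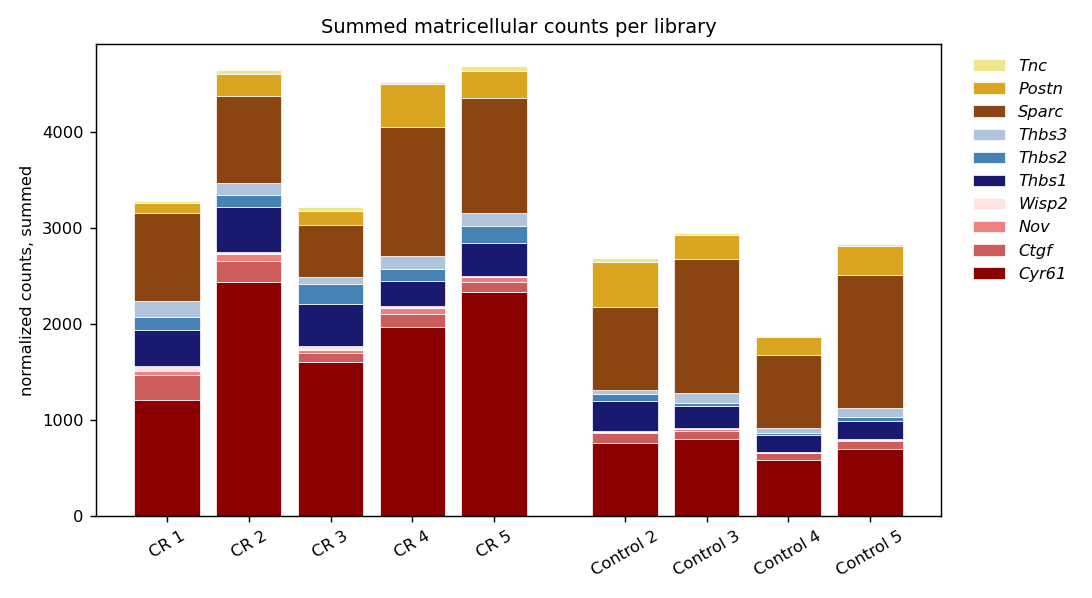
Summed normalized counts of the 10 genes in each library, the 5 CR libraries left of the 4 Control libraries, stacked by gene from the CCN family (bottom, red) through the thrombospondins (blue) to Sparc, Postn and Tnc (top, yellow and brown). Cyr61 is the tallest block in each CR library and Sparc in each Control library.

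How the genes varied from mouse to mouse within a diet was a pattern that the choice of genes had not used. For it, the mean of the diet was subtracted from each log2 value, and deviations were compared over the 9 libraries. These correlations are descriptions without p-values, and the points share a library, its depth and its size factor. Over the 45 pairs of genes, 23 correlations were above 0 and the median was 0.091, against 0.011 for the 10 genes with all tested genes, so that the genes did not vary as a block.

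Sparc, Thbs3 and Nov varied together. Pearson's r was 0.84 for Thbs3 with Sparc (Spearman's rho 0.82), 0.78 for Thbs3 with Nov (rho 0.77) and 0.73 for Nov with Sparc (rho 0.83). They also followed the mean of the 15 tested genes of the Fibroblasts list, with r = 0.97 (rho 0.95) for Sparc, 0.90 (rho 0.88) for Thbs3 and 0.78 (rho 0.88) for Nov. Without the 2 libraries farthest from the median of the list, r was 0.95 for Sparc, 0.81 for Thbs3 and 0.92 for Nov. Thbs3 also moved with depth, with r = -0.75 (rho -0.78) against the recovered counts of the library, Nov had r = -0.57 (rho -0.52) and Sparc had r = -0.37 (rho -0.35). Without the 2 libraries farthest from the median depth, r was -0.97 for Thbs3, -0.57 for Nov and -0.84 for Sparc. The part of depth in these correlations was not tested.

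Thbs1 was close to the immediate early genes. With the mean of 22 immediate early genes, transcription factors and feedback genes that are induced within minutes by growth factors or stress, its r was 0.84 (rho 0.87), and 0.89 without the 2 libraries farthest from the median of the list. With the 4 tested genes of the Macrophages and monocytes list it had r = 0.58 (rho 0.72; 0.75 without 2 libraries), and the part of those cells in its level was not tested. Ctgf had r = 0.76 (rho 0.72) with the same list and 0.61 without those 2 libraries. It also had r = 0.79 (rho 0.73; 0.36 without 2 libraries) with the Pericytes and smooth muscle list and r = 0.63 (rho 0.58; 0.78 without 2 libraries) with the SRF and MRTF pathway genes, and the part of pericyte RNA in its level was not tested. Junb and Jund, AP-1 subunits of that list, were among the 3 tested genes most like Ctgf in deviation, with r = 0.90 for Junb and 0.91 for Jund. Cyr61, although also known as an immediate early gene, had r = -0.05 (rho 0.10) with the list and r = -0.18 with Ctgf. Without the 2 libraries farthest from the median of the list, r with the list was 0.50. Without the 2 libraries farthest from the median of Cyr61, r with Ctgf was 0.54. Each of the values near 0 thus rests on the libraries left out for it.

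Tnc varied with Thbs1 (r = 0.82, rho 0.82; 0.63 without the 2 libraries farthest from the median of Thbs1) and with the mean of 9 Hippo pathway and TEAD genes (r = 0.88, rho 0.88; 0.87 without 2 libraries). With the same list Thbs1 had r = 0.73 (rho 0.67; 0.81 without 2 libraries) and Thbs2 had r = 0.72 (rho 0.67; 0.83 without 2 libraries). Lats1, a Hippo kinase and itself 1 of the 9 genes of that list, was among the 3 genes most like Tnc. Its r with Tnc was 0.92 (rho 0.87), and 0.78 without 2 libraries. Cyr61 and Postn had r = 0.72 (rho 0.67), which dropped to 0.33 without 2 libraries and so rests on them. With the highest likeness among all tested genes, Cyr61 was paired with Tlr2 (r = 0.97), Thbs2 with Ano6 (r = 0.98), Nov with Hpcal1 (r = 0.98), Thbs3 with Gigyf1 (r = 0.97) and Sparc with Myl12a (r = 0.96). The best of 6815 genes over 9 libraries is high by selection, and nothing is read from these pairs.

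**Figure D4:**
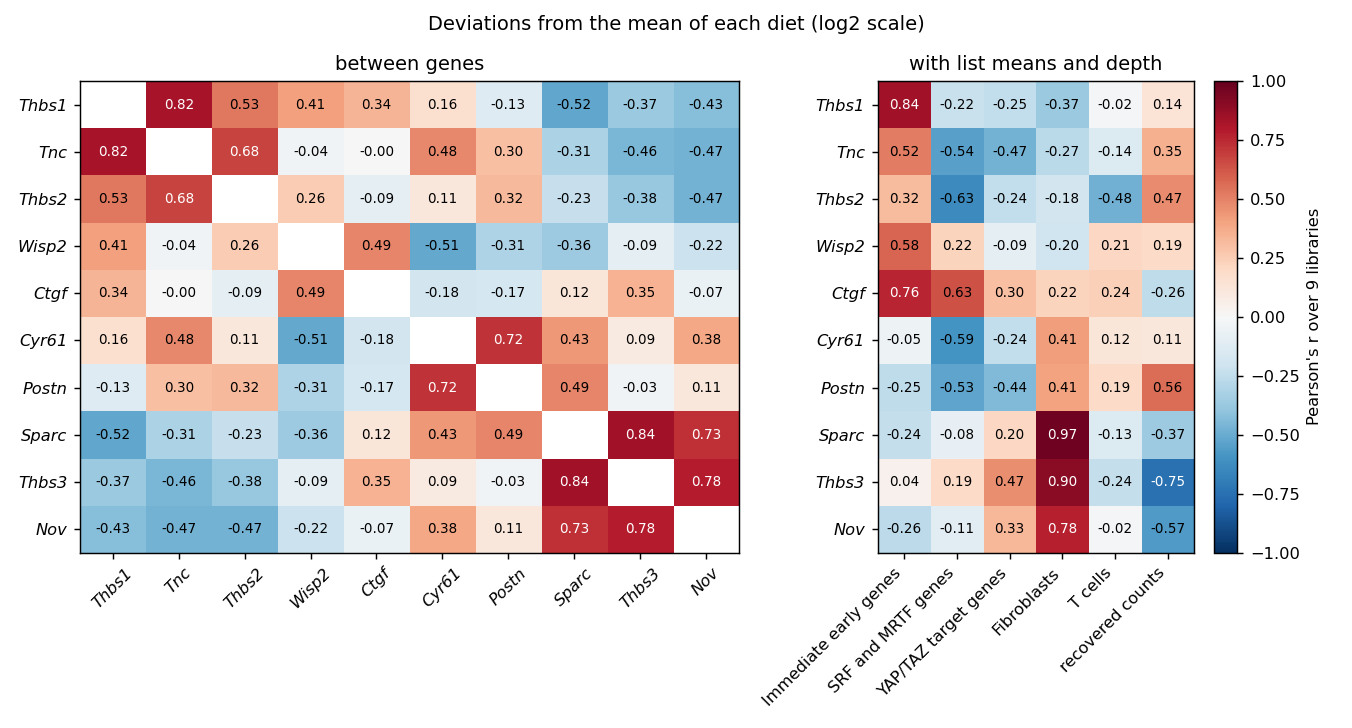
Pearson's r over 9 libraries of deviations from the diet means, between the 10 genes (left) and of each gene with the means of 5 gene lists and the recovered counts of the library (right). Red is positive and blue negative, and Sparc, Thbs3 and Nov form the positive corner at the lower right, which also has the highest values with the Fibroblasts list.

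Other matricellular genes moved in the same direction where they were called. Of the 12 tested genes of this list, 5 rose in CR, 0 fell (0 also at an unadjusted p of at most 0.05 and by DESeq2 or edgeR) and 7 did not pass, with a median log2 fold change of 0.43. For this list and those below, the shares over all tested genes were 7.98% called higher and 9.14% called lower. These lists too were chosen with earlier results of these data known, so their counts are a description and nothing is read from them. Tnxb, a tenascin of loose connective tissue, averaged 555 ± 177 normalized counts in CR and 269 ± 101 in Control (SD, n = 5 and 4; log2 fold change 1.07, adjusted p = 0.00528, limma). Fbln1 and Fbln2 encode fibulins, which bridge matrix fibers and basement membranes. Fbln1 had 82.2 ± 19.3 in CR and 37.6 ± 13.2 in Control (1.15, adjusted p = 0.00537), and Fbln2 had 268 ± 62.0 in CR and 141 ± 51.5 in Control (0.99, adjusted p = 0.0108).

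Tgfbi, a fasciclin-domain relative of Postn, rose by 0.90 (adjusted p = 0.0133), with 384 ± 147 in CR and 195 ± 29.0 in Control. Fstl1, a follistatin-like relative of Sparc, rose by 0.76 (adjusted p = 0.0229). Thbs4, the remaining thrombospondin of the table, did not pass (0.40, adjusted p = 0.648) and had a wide spread, with 88.4 ± 111 in CR and 46.8 ± 19.0 in Control. The others that did not pass were Lgals1 (0.46, adjusted p = 0.105), Mfap5 (0.41), Mfge8 (0.36), Sparcl1 (-0.10), Lgals3 (-0.36) and Smoc2 (-0.38). Spp1 and Spock2 were in the table below the filter. When scaled to the Fibroblasts list, limma called 0 of the 12 higher and 0 lower. At an unadjusted p of at most 0.05, 3 were higher and 2 lower on that scale, and the median of the 12 was 0.09.

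Of the receptors, 4 of 12 tested genes rose, 1 fell and 7 did not pass, with a median of 0.27. Itga5, the fibronectin receptor subunit, had 231 ± 56.9 normalized counts in CR and 101 ± 34.0 in Control (1.22, adjusted p = 0.00224). Its partner Itgb1 (0.71, adjusted p = 0.0447), the syndecan Sdc4 (0.80, adjusted p = 0.0147) and the thrombospondin-clearing receptor Lrp1 (0.56, adjusted p = 0.0433) were the others that rose. The number called higher was 2 without CR mouse 1, 2, 3 or 5 and 1 without Control mouse 4. It was 1 on the scale of the Fibroblasts list, where the median was -0.05, and 2 by edgeR or limma-voom. DESeq2, fitted without the filter on low values and so to 19 genes of the list, called 4 higher and 4 lower. Itgb2, the integrin subunit of leukocytes, fell to 6.54 ± 5.53 in CR, against 111 ± 39.2 in Control (-4.18, adjusted p = 8.61e-06). The part of leukocyte RNA in the level of Itgb2 was not tested. Calr, whose protein can act as a partner of thrombospondin-1 at the cell surface, was the most abundant transcript of the list. It had 736 ± 81.3 in CR and 774 ± 22.1 in Control (-0.08, adjusted p = 0.762). Cd47, named after its values were seen because it is the main thrombospondin-1 receptor, did not pass (-0.40, adjusted p = 0.147), although every CR mouse was below every Control mouse.

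The YAP/TAZ target genes other than Cyr61 and Ctgf had 4 of 10 higher, 1 lower and a median of 0.63. Igfbp3, which binds insulin-like growth factors, had 1219 ± 343 normalized counts in CR and 478 ± 60.8 in Control (1.30, adjusted p = 0.000182). Axl, a receptor tyrosine kinase, had 297 ± 51.4 in CR and 130 ± 30.0 in Control (1.19, adjusted p = 0.000391). F3 (0.71, adjusted p = 0.0114) and Amotl2 (1.26, adjusted p = 0.0129) also rose, while Nt5e, an ectonucleotidase that lymphocytes also carry, fell by 1.51 (adjusted p = 0.0279). The call of Nt5e was lost without CR mouse 3, CR mouse 4 or Control mouse 3, 4 or 5.

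Of the Hippo pathway genes and TEAD factors, 2 of 9 rose and 1 fell, with a median of 0.35. Tead3 had 26.6 ± 6.65 in CR and 8.12 ± 3.16 in Control (1.65, adjusted p = 0.00655), and Tead1 rose by 1.33 (adjusted p = 0.0323). Vgll4, which competes with YAP for TEAD factors, had 33.9 ± 14.7 in CR and 80.2 ± 26.7 in Control (-1.27, adjusted p = 0.0142). The number called higher was 1 without CR mouse 1, 2 or 3 or Control mouse 3, 4 or 5, and the call of Vgll4 was lost without Control mouse 3. On recovered counts, DESeq2 called 1 of 11 higher, edgeR 1 of 10 and limma-voom 0 of 10. Each of these tools called 2 lower. Yap1 (0.68, adjusted p = 0.0915) and Wwtr1, which encodes TAZ (0.35, adjusted p = 0.52), did not pass, and both are named after their values were seen. On the scale of the Fibroblasts list, limma called 0 of the 9 higher, with 1 higher at an unadjusted p of at most 0.05, and 2 of the 10 YAP/TAZ targets.

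The SRF and MRTF pathway genes split. Of 14 tested, 6 rose, 2 fell and the median was 0.53. Tagln, a smooth muscle actin-binding protein, had 141 ± 76.1 in CR and 47.6 ± 6.04 in Control (1.39, adjusted p = 0.00453), and Zyx, a focal adhesion protein, had 288 ± 56.6 in CR and 160 ± 8.37 in Control (0.82, adjusted p = 0.00511). Actb, cytoplasmic actin, was lower, with 1207 ± 253 in CR and 1834 ± 325 in Control (-0.61, adjusted p = 0.0261), as was Myh9 (-0.95, adjusted p = 0.0204). Tagln also belongs to the Pericytes and smooth muscle list, whose other tested genes were not called. The number called lower was 0 without CR mouse 4 or Control mouse 3 or 4, and the number called higher was 3 without Control mouse 2 and 1 on the scale of the Fibroblasts list.

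Of the 22 tested immediate early genes, 12 rose and 0 fell (0 also at an unadjusted p of at most 0.05 and by DESeq2 or edgeR), with a median of 0.74. Egr1 had 2853 ± 727 in CR and 1065 ± 106 in Control (1.39, adjusted p = 2.15e-05), and Fosl1 had 237 ± 73.0 in CR and 66.4 ± 19.4 in Control (1.83, adjusted p = 6.79e-05). For 13 of the 22 every CR mouse exceeded every Control mouse, where 7.29% of the tested genes did. Nothing is read from this count either, since the list was chosen with earlier results known. Between 10 and 13 were called without any single mouse, and 5 on the scale of the Fibroblasts list. On that scale, 7 were higher and 1 lower at an unadjusted p of at most 0.05 (limma). The part of this program in the levels of Cyr61, Ctgf and Thbs1 was not tested.

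Of the TGF-beta ligands, latency and signaling genes, 3 of 16 rose, 2 fell and the median was 0.31. Tgfb1, the ligand whose latent form thrombospondin-1 can activate, had 27.8 ± 4.65 in CR and 59.6 ± 15.1 in Control (-1.06, adjusted p = 0.00757). Nrros, which holds latent TGF-beta on myeloid cells, had 6.54 ± 2.74 in CR and 60.7 ± 33.2 in Control (-2.94, adjusted p = 9.69e-05). The part of leukocyte RNA in the levels of Tgfb1 and Nrros was not tested. Lrrc32 (0.80, adjusted p = 0.0262) and the betaglycan gene Tgfbr3 (0.74, adjusted p = 0.0183) were among those that rose. Limma called 1 of the 16 higher without CR mouse 1, 3 or 5 or Control mouse 3 and 0 without Control mouse 4. DESeq2, fitted without the filter on low values, called 2 of 18 higher, and edgeR called 2 of 16. On the scale of the Fibroblasts list limma called 0 higher, with 0 at an unadjusted p of at most 0.05, and the median was -0.02. Ltbp4, the most abundant gene of the list, had 539 ± 171 in CR and 376 ± 23.5 in Control (0.46, adjusted p = 0.125).

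**Figure D5:**
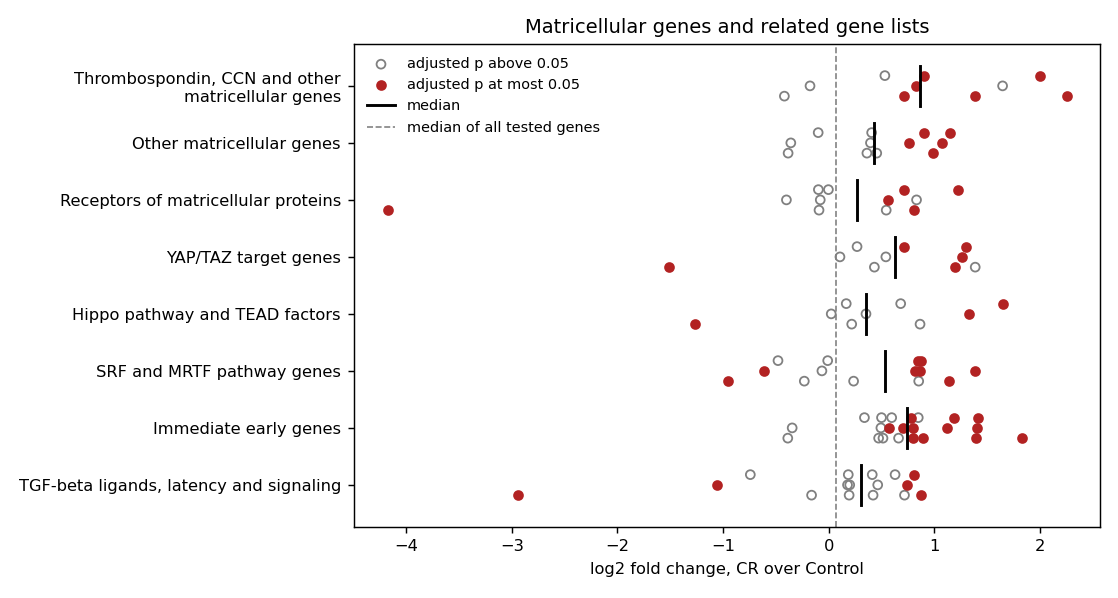
Log2 fold change of CR over Control for the 10 genes (top) and for 7 related lists, with 1 point per tested gene, filled where the adjusted p was at most 0.05; bars mark list medians and the dashed line the median of all tested genes at 0.07. The medians run between 0.27 for the receptors and 0.87 for the 10 genes.

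The Fibroblasts list also holds 5 collagen genes, named here after their values were seen, and none of them was called. Col1a1, Col1a2 and Col3a1 had log2 fold changes of -0.09 (adjusted p = 0.856), 0.04 (adjusted p = 0.922) and -0.07 (adjusted p = 0.899), and Col6a1 and Col6a2 had 0.50 (adjusted p = 0.0771) and 0.14 (adjusted p = 0.763). Within the Fibroblasts list, 5 of 15 tested genes rose, among them Dcn, a small proteoglycan, which rose by 0.70 on the log2 scale (adjusted p = 0.00473). Thy1 fell by 1.48 (adjusted p = 0.000346), a marker that mouse T cells also carry. The number called higher in this list was 1 without Control mouse 4, 2 without Control mouse 2 and 3 without CR mouse 5. On recovered counts, DESeq2 and edgeR each called 3 genes of the list higher and 1 lower.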

How the data were processed

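Poly(A) RNA of 15000 sorted cells from each of 5 CR and 4 Control mice was profiled, with 1 library per mouse. Per their methods, the authors trimmed reads with cutadapt, dropped those under 30 bases, mapped them to mm10 with STAR, removed duplicates by molecular identifier and counted them with HTSeq over 1000 bases at the 3′ ends of RefSeq genes. They corrected the counts for identifier saturation and divided them by DESeq2 size factors, with tool versions and strand setting not given in the sources used here. This normalized count signal was deposited by the authors to 2 decimals for 11063 genes. No per-sample column was left unused, and the submitted labels give the food share of the CR mice as 65%.

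In each library 99.98 to 100% of values above 0 were whole multiples of a step to within 0.0051 normalized counts, and dividing by it gave the recovered counts. As the values are normalized, limma 3.58.1 (trend; R 4.3.3) was fitted to log2(normalized count + 1) for the 6815 genes with 10 or more normalized counts in 4 or more libraries, and Benjamini-Hochberg adjustment was followed by calls at an adjusted p of at most 0.05. DESeq2 1.42.0 (settings of the study), edgeR 4.0.16 (quasi-likelihood) and limma-voom on recovered counts, 3 other scalings, pseudocounts of 0.5 and 5, other filters, the criteria of the study (1.5-fold, 30 counts), a replicate block and the omission of each mouse were the alternatives. The scripts were tested on simulated data. Marker lists were summed per library and compared with exact permutation tests over all 126 assignments (scipy 1.17.1), with Benjamini-Hochberg adjustment over 10 lists.

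The 10 genes and all gene lists were chosen with earlier results of these data known. Named in the text were the 10 genes, the list of other matricellular genes, of each other list the 2 called genes with the smallest p and the most abundant gene, and the 3 genes most alike in deviation from the diet means; where a count was 5 or fewer, its members were added after their values were seen. Some genes that this rule takes are not reported here. The labels say that each library came from an individual mouse. Positions are from GENCODE and sequences from RefSeq, both of GRCm38, the assembly of mm10.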

Additional observations from a re-analysis of the deposited data

How the results depend on the processing

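Over 21 alternatives for each of the 10 genes, 172 of 205 fits kept direction and side of the threshold, 28 lost the call, 4 gained it and 1 turned in sign: Sparc, at 0.02 without CR replicate 3, where leaving out a mouse gave -0.34 to 0.02. Wisp2 fell below the filter on low values in 5 settings and has no value there. Scaling to the Fibroblasts list gave 97 genes called higher (544 on the deposited scale) and 3 of the 10 genes (6 on the deposited scale). Leaving out a mouse gave 335 to 588 genes called higher, 360 to 589 called lower and 3 to 6 of the 10 genes. Calls higher against lower were 533 and 871 with DESeq2, 398 and 687 with limma-voom and 414 and 699 after scaling to equal totals. Libraries with the same replicate number in their titles did not vary together. Correlations of their deviations from the diet means ran between -0.07 and 0.04. None of CR libraries 2 to 5 was best matched by the Control library of its own number. These values cannot tell whether the numbers pair the mice in some other way. With the replicate block, which leaves CR mouse 1 without a partner and so without weight, 392 genes were called higher, 511 lower and 4 of the 10 genes, with Thbs3 (0.79, adjusted p = 0.115) and Ctgf (0.62, adjusted p = 0.104) lost. Depth limits Wisp2 and Nov most, which had as few as 2 and 4 recovered counts in Control libraries.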
